A study of Homo sapiens with 12 samples.

Results

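The 9 genes described here, CCN1, CCN2, THBS1, ANKRD1, ANKRD2, AXL, CRIM1, NT5E and F3, are often used as targets of the coactivator YAP and its DNA-binding partners, the TEAD factors. They were chosen by name among 23459 gene rows of a count table, and they are ordered by how far JUN lowered their level in cells with induced YAP. That order uses the induced libraries with and without the JUN vector, so values of this comparison are given as a description, without a test. All 9 passed the filter on low counts, as did 14775 genes in all. RNA sequencing was done in MCF10A, an immortalised but untransformed line of human breast epithelium, and the study asked how JUN overexpression affects the expression of YAP target genes. All cells carried a doxycycline-inducible YAP5SA allele, a form of YAP that the Hippo kinases can no longer phosphorylate and restrain. Cells infected with an empty vector and given the solvent ethanol are called vector EtOH, and the same cells given doxycycline at 100 ng/ml are called vector Dox. Cells infected with the JUN expression vector are called JUN EtOH and JUN Dox in the same way, and each of the 4 groups had 3 libraries. Doxycycline was given for 16 hours according to the methods, and the cells infected with either vector were selected with antibiotic.

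In the Hippo pathway, a kinase cascade ending in LATS kinases phosphorylates YAP and its relative TAZ and keeps them out of the nucleus. When the cascade is quiet, YAP and TAZ enter the nucleus and bind TEAD factors at promoters and, mostly, enhancers. JUN is a subunit of AP-1, a dimeric transcription factor that often binds near TEAD. The products of the 9 genes act largely outside the cell or at its surface. CCN1 and CCN2 are secreted matricellular proteins, THBS1 is a matrix glycoprotein that can activate latent TGF-beta, and CRIM1 is a membrane protein that binds BMP ligands. AXL is a receptor tyrosine kinase, NT5E (CD73) is the ectoenzyme that turns AMP into adenosine, and F3 is tissue factor, the cellular starter of coagulation. ANKRD1 and ANKRD2 are ankyrin repeat proteins best known from muscle, where they respond to stretch.

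Promoters of 7 of the 9 genes, all but CCN1 and CRIM1, were matched in RefSeq (build GRCh38.p14). Each was searched on both strands, from 250 bases before to 50 bases after the annotated start. The letters sought were the TEAD core GGAATG and TGANTCA, a loose form of the AP-1 site with any base in the middle. Their matches do not overlap each other. The TEAD letters were present in 3 of 7, against 14.0% of 35116 promoters of the same length. The AP-1 letters were present in 2 of 7, against 7.71% of those promoters. The 4 windows with a match and, for contrast, that of ANKRD2, which holds neither and belongs to a gene that JUN lowered strongly, are printed as the 250 bases before the start, 5′ to 3′ in the direction of the gene, with matches in capitals. They lie at chr6:131951373-131951622 (CCN2, minus strand), chr10:90921088-90921337 (ANKRD1, minus strand), chr15:39580829-39581078 (THBS1, plus strand), chr1:94541760-94542009 (F3, minus strand) and chr10:97572191-97572440 (ANKRD2, plus strand).
CCN2: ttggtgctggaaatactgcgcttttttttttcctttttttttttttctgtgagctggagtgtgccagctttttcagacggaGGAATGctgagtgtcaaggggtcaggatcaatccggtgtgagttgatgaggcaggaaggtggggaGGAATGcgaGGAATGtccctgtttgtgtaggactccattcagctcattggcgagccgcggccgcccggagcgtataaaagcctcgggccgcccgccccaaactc
ANKRD1: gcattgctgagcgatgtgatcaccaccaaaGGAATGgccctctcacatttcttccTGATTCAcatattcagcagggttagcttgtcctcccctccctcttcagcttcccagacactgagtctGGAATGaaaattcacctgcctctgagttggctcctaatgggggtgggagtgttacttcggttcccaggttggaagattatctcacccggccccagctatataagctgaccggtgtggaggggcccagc
THBS1: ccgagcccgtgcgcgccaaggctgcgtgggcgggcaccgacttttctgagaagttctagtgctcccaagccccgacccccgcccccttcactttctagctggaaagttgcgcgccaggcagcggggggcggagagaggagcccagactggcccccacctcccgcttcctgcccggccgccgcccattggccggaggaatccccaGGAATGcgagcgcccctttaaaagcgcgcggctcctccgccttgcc
F3: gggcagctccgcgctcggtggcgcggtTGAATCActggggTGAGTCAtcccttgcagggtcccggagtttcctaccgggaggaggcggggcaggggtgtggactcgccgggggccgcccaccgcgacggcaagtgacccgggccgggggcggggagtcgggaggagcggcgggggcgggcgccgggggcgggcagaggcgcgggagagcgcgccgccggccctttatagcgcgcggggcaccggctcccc
ANKRD2: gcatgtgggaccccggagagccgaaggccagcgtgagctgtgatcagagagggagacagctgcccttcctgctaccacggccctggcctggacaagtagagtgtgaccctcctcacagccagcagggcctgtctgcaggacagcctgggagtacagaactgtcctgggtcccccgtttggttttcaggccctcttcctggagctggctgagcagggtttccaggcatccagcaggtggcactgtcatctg
CCN2 held 3 TEAD matches, beginning at positions -169, -104 and -95 from the start. ANKRD1 held 2, at -220 and -128, with an AP-1 match (TGATTCA) between them at -195. THBS1 held 1 TEAD match, at -46. F3 held no TEAD match but 2 AP-1 matches, TGAATCA at -223 and TGAGTCA at -210. Of all the AP-1 matches, only TGAGTCA in F3 has the C or G in the middle that the strict AP-1 site asks for. AXL and NT5E, like ANKRD2, held neither in this window. These are matches of letters only, and binding was not measured in these libraries.

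**Figure D1:**
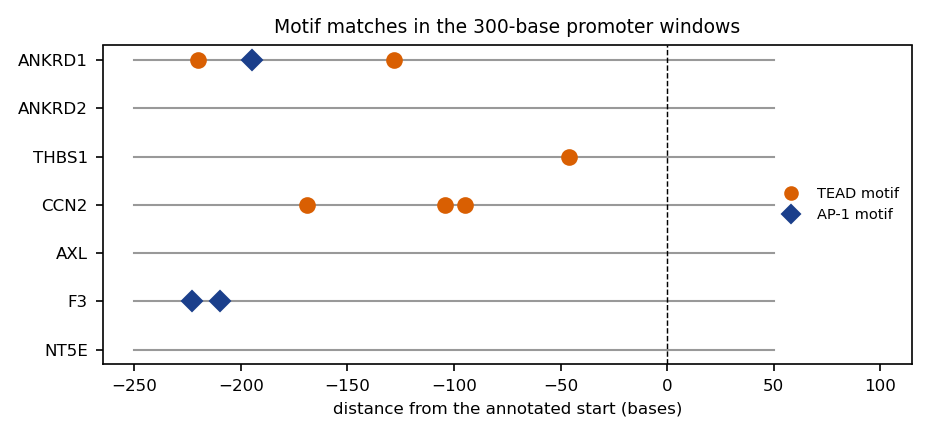
Matches of the TEAD core (orange circles) and of TGANTCA, the loose AP-1 form (blue diamonds), in the promoter windows of 7 genes. They are plotted by distance in bases from the annotated start (dashed line). Genes are in the order of their JUN response, from the most lowered at the top. CCN2 holds 3 TEAD matches, ANKRD1 holds 2 with an AP-1 match between them, THBS1 holds 1, F3 holds 2 AP-1 matches, and the other windows hold none.

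Total counts ranged from 18594867 to 28993487 per library, which puts 3 counts, taken as the detection floor, at 0.107 to 0.15 CPM. CPM is the count scaled to a common library size, here with TMM factors, and is not corrected for gene length. JUN, the gene carried by the vector, ranged from 35.5 to 55.0 CPM in vector EtOH, from 186 to 194 CPM in vector Dox and from 1063 to 1399 CPM in the 6 libraries of JUN cells, so the JUN groups matched their labels and JUN rose on induction in vector cells (log2 fold change 1.99, SE 0.16, edgeR adjusted p = 3.09e-07). YAP1, whose counts may hold reads of the YAP5SA transgene, was at 171 to 191 CPM in vector EtOH and 216 to 273 CPM in vector Dox. This did not pass the test (edgeR adjusted p = 0.0819). In JUN EtOH it was at 210.5 to 249 CPM and in JUN Dox at 208 to 365 CPM. Those ranges overlapped and did not pass the test either (edgeR adjusted p = 0.308). YAP5SA was not counted apart from YAP1, so the part of its level in the inductions was not tested. All 8 mammary epithelial markers examined had a mean above 5 CPM in every group. Their sums were 8020 to 8240 CPM in vector EtOH, 5080 to 5940 in vector Dox, 5770 to 7550 in JUN EtOH and 3490 to 5870 in JUN Dox. On induction in vector cells 4 of the 8 were called lower (KRT5, KRT14, KRT17 and TP63), as were 14.4% of all genes tested. JUN without induction lowered 3 (EPCAM, KRT8 and KRT18) and raised 2, against 18.9% and 20.1% of all genes. Of the fibroblast markers, 4 of 8 exceeded 1 CPM in a library (sums from 111 to 162 CPM), and DCN and LUM were called higher with JUN without induction. Of the endothelial markers 2 of 5 did (sums from 0.781 to 2.93 CPM). Of the leukocyte markers 1 of 5 did, CD68, which JUN raised from 28.9 to 84.8 CPM without induction, while the defining PTPRC was at or near 0. The part of these shifts in the values of the 9 genes was not tested. The vector EtOH library of replicate 2 was the lowest of its group for 8 of the 9 genes, while it was the lowest for 39.3% of all genes tested. GC content was examined as the correlation across 14385 genes of a gene's GC content with its deviation from the group mean. Of the JUN Dox libraries, 2 stood apart, replicate 1 at -0.353 and replicate 3 at 0.361. The JUN EtOH libraries leaned the same way, with -0.197 in replicate 1 and 0.224 in replicate 3. The vector libraries lay between -0.081 and 0.0676. The part of this in the JUN comparisons was not tested. In bulk RNA, fewer expressing cells and less RNA per cell cannot be told apart.

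YAP5SA induction raised 8 of the 9 genes in vector cells and the same 8 in JUN cells. NT5E was the exception, so it did not behave as a YAP5SA-induced gene in these libraries although it was chosen as a YAP target. It is also on the study's own list of Top-YAP-induced genes, which came from a separate experiment, and the reason for this difference was not tested. In vector cells, 15.6% of all genes tested were called higher (edgeR quasi-likelihood test, adjusted p under 0.05 over all genes), and in JUN cells 11.2%. The groups were apart in the higher direction for the same 8 genes in both backgrounds, as for 22.6% and 20.4% of all genes, and 10.3% of all genes were called lower in JUN cells. Induction reached a median log2 fold change over the 9 genes of 3.30 with the empty vector and 1.75 with JUN, against 0.0072 and 0.0032 over all genes tested. The fits share the induced libraries with the comparison that orders the genes. The methods call the replicates biological, while the labels do not say whether they came from separate cultures, so p-values measure the spread between these libraries, which may be technical.

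**Figure D2:**
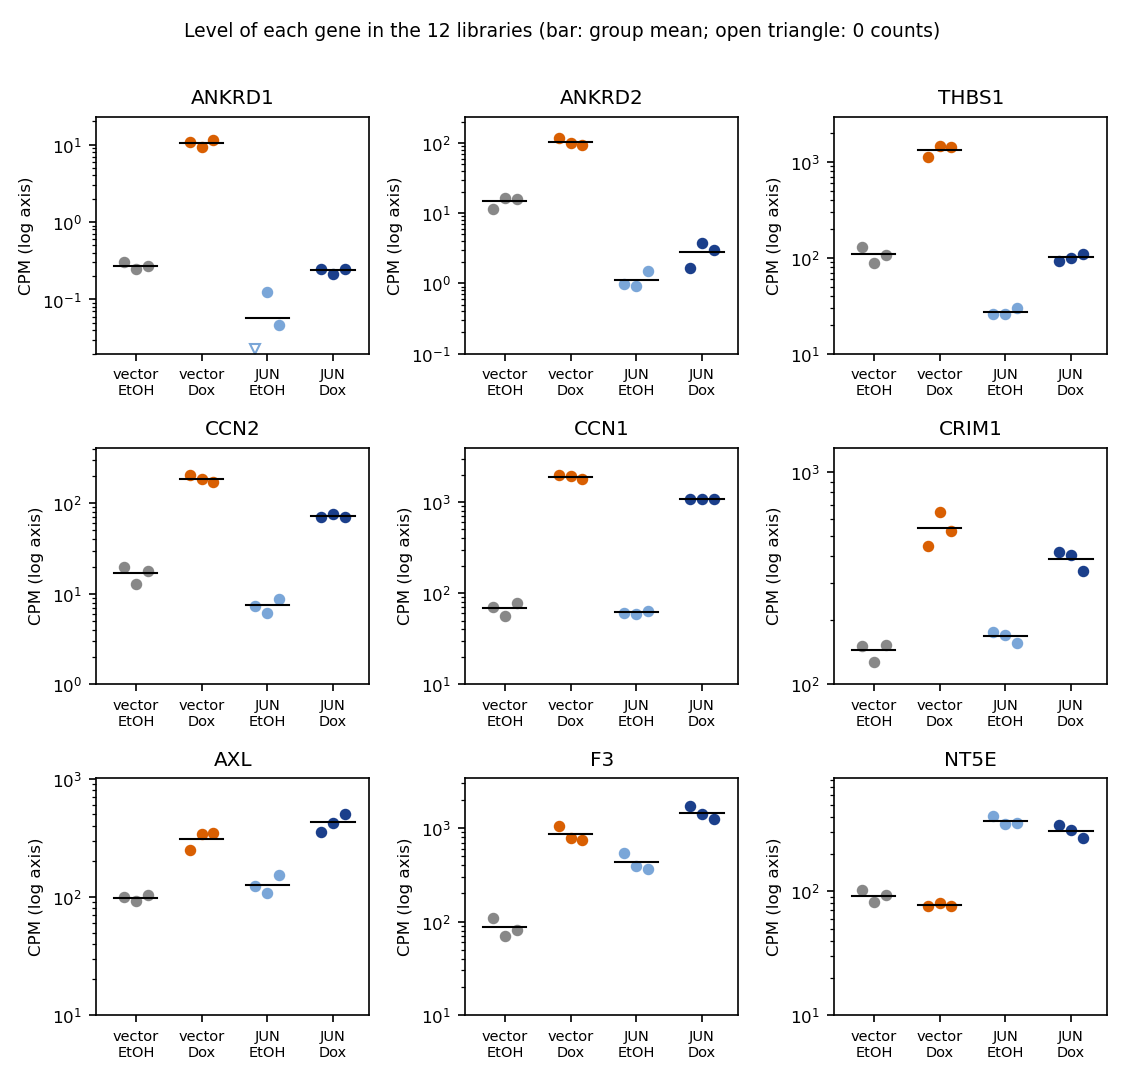
Level in CPM (log axis, a separate range in each panel) of the 9 genes in each of the 12 libraries, with 1 panel per gene in the order of the JUN response. Points are libraries, black bars are group means and the open triangle is the JUN EtOH library with 0 counts of ANKRD1. In the top row the JUN Dox points lie far below the vector Dox points, and in the bottom row above them.

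ANKRD1, ANKRD2 and THBS1 lost nearly all of their induced level with JUN. ANKRD1 (GRCh37 chr10:92671853-92680844, minus strand, 9 exon blocks) is a nuclear and sarcomeric cofactor and was the least abundant of the 9 genes. It had 8, 5 and 6 counts in the vector EtOH libraries (0.30, 0.25 and 0.27 CPM) and 249, 208 and 275 counts in the vector Dox libraries (10.9, 9.37 and 11.4 CPM). The JUN EtOH libraries held 0, 3 and 1 counts (0, 0.13 and 0.047 CPM), and the JUN Dox libraries held 5, 5 and 7 (0.25, 0.22 and 0.25 CPM). The vector Dox libraries thus stood alone, and the other 9 libraries held at most 8 counts each. Induction in vector cells gave a log2 fold change of 5.22 (SE 0.28, edgeR adjusted p = 4.49e-09). In JUN cells, 17 counts with induction stood against 4 without, a ratio of 4.04 with a 95% counting interval of 1.32 to 16.5, and the fitted log2 fold change was 1.92 (SE 0.60, edgeR adjusted p = 0.0328). The latter call rests on few counts. It was lost with DESeq2 (adjusted p = 0.0605) and without any 1 of 5 JUN libraries, namely JUN EtOH replicate 1 (edgeR adjusted p = 0.185) or 3 (0.0925) and JUN Dox replicate 1 (0.0624), 2 (0.059) or 3 (0.0795), and without JUN EtOH replicate 2 the value was 3.12. The level in JUN Dox was 2.27% of that in vector Dox, and it was 87.0% of the uninduced level in vector EtOH, with ranges that overlapped.

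ANKRD2 (chr10:99332256-99343641, plus strand, 9 exon blocks) is the relative of ANKRD1 found in slow skeletal muscle. Its levels were 11.6, 16.8 and 15.9 CPM in vector EtOH, 118, 101 and 94.3 CPM in vector Dox, 0.97, 0.93 and 1.501 CPM in JUN EtOH and 1.66, 3.76 and 2.98 CPM in JUN Dox. Every JUN library, induced or not, was below every vector library. Induction raised it by 2.83 on the log2 scale in vector cells (SE 0.20, edgeR adjusted p = 7.2e-08) and by 1.33 in JUN cells (SE 0.30, edgeR adjusted p = 0.00514). Even with induction, JUN Dox reached 19.0% of the level of vector EtOH. The lowest JUN Dox value came from replicate 1, the library with the negative GC correlation, and ANKRD2 had the highest GC content of the 9 genes (61.6% of its longest transcript). The part of GC content in this spread was not tested.

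THBS1 (chr15:39873280-39891667, plus strand, 20 exon blocks) measured 130, 87.3 and 107 CPM in vector EtOH, 1117, 1467 and 1436 CPM in vector Dox, 25.9, 26.2 and 29.7 CPM in JUN EtOH and 92.7, 99.1 and 110 CPM in JUN Dox. The JUN Dox libraries lay within the range of vector EtOH, and their mean was 93.0% of it. Induction gave a log2 fold change of 3.63 in vector cells (SE 0.16, edgeR adjusted p = 9.81e-10) and of 1.89 in JUN cells (SE 0.15, edgeR adjusted p = 8.84e-07). FSIP1, which overlaps THBS1 on the other strand and shares 448 exon bases, had a mean of 11.2 counts against 9133 for THBS1, and whether strand was used in counting is not given.

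CCN2, CCN1 and CRIM1 kept a larger share of their induced level with JUN. CCN2, long known as CTGF (chr6:132269316-132272512, minus strand, 5 exon blocks), was at 20.0, 12.8 and 17.6 CPM in vector EtOH and at 206, 185 and 170 CPM in vector Dox. It was at 7.39, 6.07 and 8.82 CPM in JUN EtOH and at 71.3, 75.4 and 70.6 CPM in JUN Dox. JUN libraries were below vector libraries both without and with induction, with no overlap. The fold of induction was much the same in both backgrounds, 11.1 in vector cells (log2 fold change 3.47, SE 0.16, edgeR adjusted p = 1.22e-09) and 9.75 in JUN cells (3.29, SE 0.16, edgeR adjusted p = 1.17e-08). The difference of these log2 values, -0.18 (SE 0.22), was smaller than its error, and ran from -0.33 to -0.015 over the other settings tried.

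CCN1, long known as CYR61 (chr1:86046444-86050272, plus strand, 2 exon blocks), had the highest induced level of the 9 in vector cells. It was at 71.0, 56.2 and 78.4 CPM in vector EtOH, 1977, 1906 and 1801 CPM in vector Dox, 60.7, 59.2 and 64.5 CPM in JUN EtOH and 1076, 1070 and 1068 CPM in JUN Dox. Vector EtOH and JUN EtOH overlapped, while vector Dox and JUN Dox were far apart. The JUN Dox libraries had a coefficient of variation of 0.408%. That is below the counting error of their 21466 to 30067 counts, so it is not read as a property of the gene. Its log2 fold change on induction was 4.79 in vector cells (SE 0.14, edgeR adjusted p = 1.31e-11) and 4.12 in JUN cells (SE 0.14, edgeR adjusted p = 7.48e-11). JUN cells gained 1010 CPM on induction and vector cells 1826 CPM, so that 55.3% of the gain was kept.

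CRIM1 (chr2:36582921-36778278, plus strand, 21 exon blocks) was at 151, 128 and 154 CPM in vector EtOH and at 447, 650 and 529 CPM in vector Dox. In JUN cells it was at 177, 171 and 157 CPM without and at 418, 405 and 341 CPM with induction. With JUN it was higher in all uninduced libraries and lower in all induced ones, the only one of the 9 genes whose groups were apart in opposite ways. The uninduced groups nearly met, at 154 and 157 CPM, and their difference was not called (edgeR adjusted p = 0.207). Induction of CRIM1 came to 1.91 in vector cells (log2, SE 0.14, edgeR adjusted p = 1.22e-07) and 1.20 in JUN cells (SE 0.14, edgeR adjusted p = 2.16e-05). FEZ2 overlaps its span on the other strand without shared exon bases and had a mean of 690 counts against 7183.

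AXL, F3 and NT5E were higher, not lower, in JUN Dox than in vector Dox. AXL (chr19:41725128-41767671, plus strand, 22 exon blocks) was at 99.6, 93.3 and 103 CPM in vector EtOH, 248, 339 and 347 CPM in vector Dox, 123, 107 and 152 CPM in JUN EtOH and 352, 424 and 506 CPM in JUN Dox. All JUN libraries were above all vector libraries of the same treatment, by a narrow margin in both cases. Induction was alike in size, with a log2 fold change of 1.66 in vector cells (SE 0.16, edgeR adjusted p = 2.84e-06) and 1.75 in JUN cells (SE 0.16, edgeR adjusted p = 3.37e-06). The difference, 0.088 (SE 0.23), ran from -0.051 to 0.24 over the other settings, changing sign.

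F3 (chr1:94994729-95007315, minus strand, 7 exon blocks) was at 110, 70.8 and 81.7 CPM in vector EtOH, 1051, 789 and 743 CPM in vector Dox, 534, 397 and 366 CPM in JUN EtOH and 1703, 1400 and 1247 CPM in JUN Dox. The 4 groups did not overlap and rose in the order vector EtOH, JUN EtOH, vector Dox, JUN Dox. Its response to induction depended on the scale. The log2 fold change was 3.30 in vector cells (SE 0.21, edgeR adjusted p = 3.12e-08) and 1.74 in JUN cells (SE 0.20, edgeR adjusted p = 1.88e-05), yet the gain in level was 774 CPM in vector cells and 1017 CPM in JUN cells. JUN Dox replicate 1, with the negative GC correlation, was the highest of its group for F3, whose transcript is GC-poor (42.8%). For THBS1, at 45.7% also below the median of 47.9%, that library was the lowest. Of the 9 genes, 5 were highest there and 3 lowest. The part of GC content in this was not tested.

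NT5E (chr6:86159302-86205509, plus strand, 10 exon blocks) was at 102, 82.1 and 92.9 CPM in vector EtOH and at 76.3, 79.9 and 76.1 CPM in vector Dox. In JUN cells it was at 410, 352 and 355 CPM without and at 341, 312 and 268 CPM with induction. Every JUN library was above every vector library, whatever the treatment. Induction left the level slightly lower in all libraries of both backgrounds, as for 21.3% of all genes with the empty vector and 19% with the JUN vector, with log2 values of -0.25 in vector cells (SE 0.12, edgeR adjusted p = 0.113) and -0.28 where JUN was expressed (SE 0.11, edgeR adjusted p = 0.0972), and neither passed the test. The latter was called only when JUN Dox replicate 1 was left out (-0.36, edgeR adjusted p = 0.0384).

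**Figure D3:**
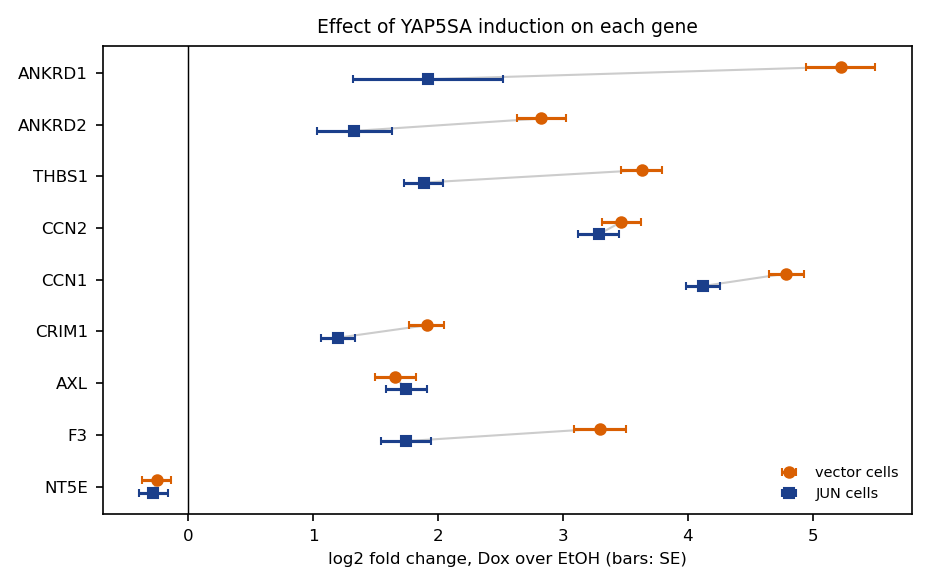
The log2 fold change of YAP5SA induction (Dox over EtOH, bars are SE) for the 9 genes in vector cells (orange circles) and JUN cells (blue squares). ANKRD1 falls from 5.22 to 1.92 and THBS1 from 3.63 to 1.89, CCN2 and AXL keep nearly the same value, and NT5E lies just below 0 in both.

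Without YAP5SA induction the JUN effect could be tested on libraries that the order of the genes did not use. The genes were still chosen with earlier results of these data known, so this is not an independent check. Here JUN lowered CCN2, THBS1, ANKRD1 and ANKRD2, raised F3 and NT5E, and gave no call for CCN1, AXL and CRIM1. Of all genes tested, 18.9% were called lower and 20.1% higher. The log2 fold changes of the called genes were -3.70 for ANKRD2 (SE 0.26, edgeR adjusted p = 8.38e-08), -1.99 for THBS1 (SE 0.15, edgeR adjusted p = 2.35e-07) and -1.19 for CCN2 (SE 0.16, edgeR adjusted p = 6.17e-05). For ANKRD1, 4 counts in JUN EtOH stood against 19 in vector EtOH, a ratio of 0.213 with a 95% counting interval of 0.0528 to 0.642. Its fitted value was -2.13 (SE 0.59, edgeR adjusted p = 0.0105), which became -1.58 (adjusted p = 0.071) without JUN EtOH replicate 1, the library with 0 counts, and -3.32 without JUN EtOH replicate 2. F3 rose by 2.31 (SE 0.20, edgeR adjusted p = 7.51e-07) and so did NT5E, by 2.01 (SE 0.12, edgeR adjusted p = 1.61e-08), which is the opposite direction to the ankyrin repeat genes in the same libraries.

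CCN1 differed by -0.16 (SE 0.12, edgeR adjusted p = 0.321), with groups that overlapped. AXL and CRIM1 were higher with JUN in 3 of 3 libraries, as were 28.9% of all genes, by 0.37 for AXL (SE 0.16, edgeR adjusted p = 0.0812) and by 0.22 for CRIM1 (SE 0.14, edgeR adjusted p = 0.207). Both passed the test when only the 6 uninduced libraries were fitted (edgeR adjusted p = 0.0101 and 0.0484), and AXL also passed without vector Dox replicate 1 (edgeR adjusted p = 0.0363), so these calls depend on the estimate of the spread. Over the 401 tested genes of the study's Top-YAP-induced list, drawn up from a separate experiment and holding 434 rows, 407 distinct gene IDs and 7 of the 9 genes (all but ANKRD1 and AXL), ANKRD2 had the lowest value of this comparison and THBS1 ranked 6 from the lowest. On the same list F3 ranked 14 and NT5E 19 from the highest, and the median was 0.017.

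With YAP5SA induction the order from the most lowered to the most raised gene was ANKRD1, ANKRD2, THBS1, CCN2, CCN1, CRIM1, AXL, F3 and NT5E. The log2 fold changes of JUN Dox over vector Dox were -5.43 (SE 0.28) for ANKRD1, -5.20 (SE 0.23) for ANKRD2 and -3.73 (SE 0.16) for THBS1. They were -1.37 (SE 0.14) for CCN2, -0.82 (SE 0.12) for CCN1 and -0.48 (SE 0.14) for CRIM1. Above 0 were AXL at 0.46 (SE 0.16), F3 at 0.75 (SE 0.19) and NT5E at 1.99 (SE 0.12). The groups did not overlap for any of the 9, 6 lower and 3 higher, and the same held in the lower direction for 21.2% and in the higher for 22.2% of all genes. Since these values order the genes, nothing is read from that count.

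As a share of the mean level in vector Dox, the mean of JUN Dox was 2.27% for ANKRD1, 2.68% for ANKRD2 and 7.51% for THBS1. Across the JUN Dox libraries this share ran from 2.05% to 2.38%, from 1.58% to 3.60% and from 6.92% to 8.21%. It was 38.7% (37.8% to 40.3%) for CCN2, 56.6% (56.4% to 56.8%) for CCN1 and 71.5% (62.9% to 77.0%) for CRIM1. It was 137% (113% to 163%) for AXL, 168% (145% to 198%) for F3 and 397% (346% to 441%) for NT5E. The library ranges of neighbours in this order overlapped for ANKRD1 and ANKRD2 and for AXL and F3. These ranges leave out the spread of the vector Dox libraries. The step from CCN1 to CRIM1 was 0.34 on the log2 scale (SE 0.18), which is less than 2 SE, so their order is not settled either.

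**Figure D4:**
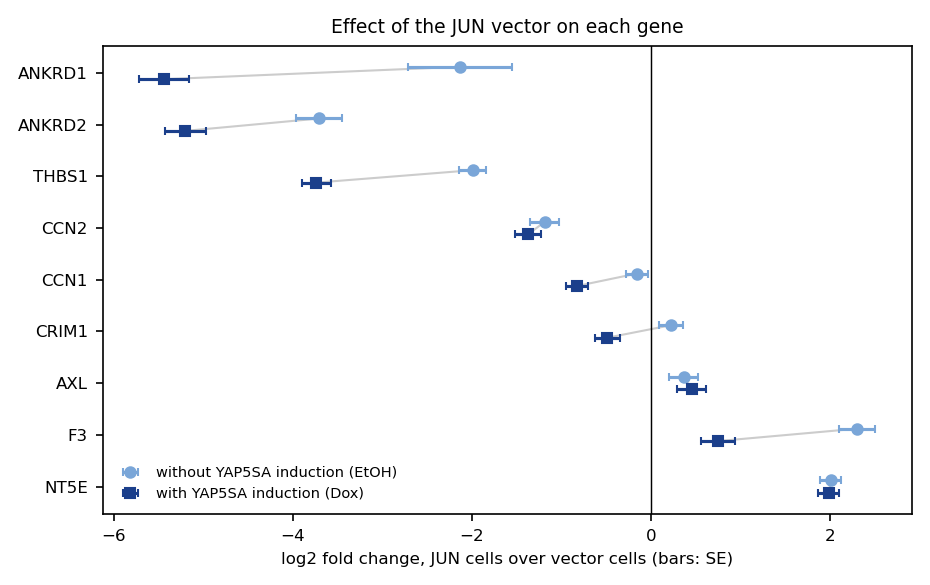
The log2 fold change of JUN over vector cells (bars are SE) for the 9 genes without induction (light circles) and with induction (dark squares), ordered by the latter. The genes run from -5.43 for ANKRD1 to 1.99 for NT5E, and CCN2, AXL and NT5E hardly move. The value of CRIM1 changes sign between the conditions, though it was not called without induction.

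The order without induction was nearly the same, with ANKRD1 and ANKRD2 exchanged at one end and F3 and NT5E at the other. Pearson's r between the JUN effects in the uninduced and the induced libraries was 0.934 and Spearman's rho 0.967 over the 9 genes, which share no library between the axes but were all counted in the same JUN and vector cell populations. As the genes were chosen with earlier results of these data known, both values are a description. The difference between the log2 JUN effects, with induction minus without, was -3.30 for ANKRD1 (SE 0.93), -1.75 for THBS1 (SE 0.21), -1.55 for F3 (SE 0.27) and -1.497 for ANKRD2 (SE 0.37). It was -0.71 for CRIM1 (SE 0.19) and -0.66 for CCN1 (SE 0.17). For CCN2, AXL and NT5E the difference was smaller than its SE. Of all genes tested, 0.826% were called with a lower and 0.291% with a higher log2 value of induction in JUN cells than in vector cells. No call is read for the 9 genes. F3 thus had a smaller fold of induction with JUN, although its JUN Dox level was above that in vector Dox. Without JUN EtOH replicate 2 the value of ANKRD1 was -2.11 rather than -3.30.

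Levels can be compared between genes only per length of exon. The length used is the union of the exons of all annotated transcripts, which can exceed that of the transcript expressed. For CCN1 it took in 3698 of the 3829 bases of the gene, merged into 2 exon blocks. The order between genes therefore depends on this choice of length. In vector EtOH the order in CPM per kb was F3 at 30.3, then NT5E, CRIM1, AXL and CCN1 between 20.3 and 18.5 with overlapping ranges between neighbours. Below them came THBS1 at 11.8, ANKRD2 at 10.2 and CCN2 at 7.19, again overlapping from each to the next, and ANKRD1 at 0.15. In vector Dox CCN1 led at 512 CPM per kb (SD 24.0, n = 3), followed by F3 at 298 and THBS1 at 146, and CCN2, CRIM1, ANKRD2 and AXL lay between 79.9 and 60.7 with overlapping neighbours. NT5E followed at 17.1 and ANKRD1 at 5.88. In JUN Dox F3 led at 502 (SD 80.4, n = 3) and CCN1 came next at 290, then AXL at 83.3 and NT5E at 67.7, which overlapped, and then CRIM1 at 53.3, CCN2 at 31.0, THBS1 at 10.99, ANKRD2 at 1.93 and ANKRD1 at 0.13. In JUN EtOH F3 led at 150 CPM per kb, followed by NT5E at 82.1, AXL at 24.8 and CRIM1 at 23.2, which overlapped, and CCN1 at 16.6, and the other 4 genes were at 3.18 or less. Because the reads were aligned without splitting at introns, genes with many exons lose more reads on this scale.

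The 15 other genes of a widely used YAP/TAZ signature also held genes that JUN lowered and genes that JUN raised. On induction in vector cells 11 of 15 rose and none fell (median log2 fold change 1.32, with 15.6% of all genes called higher), led by IGFBP3, an insulin-like growth factor carrier, at 5.98 (SE 0.29), CCDC80 at 2.92 (SE 0.11), AMOTL2, a YAP-binding junction protein, at 2.52 (SE 0.14) and the kinase NUAK2 at 2.42 (SE 0.13). In JUN cells 9 of 15 rose and none fell (median 0.59), against 11.2% and 10.3% of all genes. IGFBP3 and AMOTL2 again led, at 4.02 and 2.11. JUN without induction raised 8 and lowered 2 (median 0.39), against 20.1% and 18.9% of all genes, including CCDC80, which went from 42.3 to 208 CPM, IGFBP3 at 2.08, DOCK5 at 1.06 and TGFB2, a TGF-beta ligand, at -1.55. JUN with induction raised 3 and lowered 5 (median 0.035), against 18.4% and 17.2% of all genes. The lowered included TGFB2 at -2.65 (SE 0.20) and NUAK2 at -2.16 (SE 0.13), and the raised included CCDC80 at 0.82 (SE 0.10) and DOCK5 at 0.71 (SE 0.17). All these calls are at an edgeR adjusted p under 0.05.

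**Figure D5:**
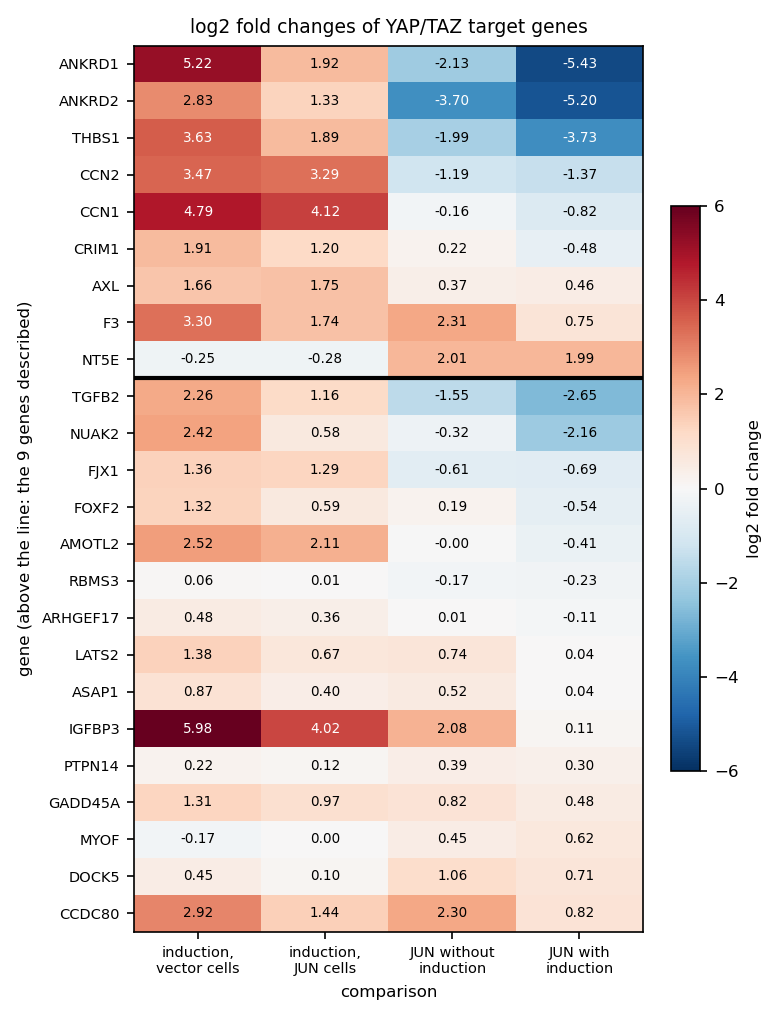
The log2 fold changes of the 9 genes (above the line) and of 15 other YAP/TAZ signature genes (below it) in the 4 comparisons, red for higher and blue for lower, with the value written in each cell. Below the line, TGFB2 at -2.65 and NUAK2 at -2.16 are the most lowered by JUN with induction and CCDC80 at 0.82 is the most raised.

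Several relatives of the 9 genes moved in another direction. In the CCN family, CCN3 and CCN5 fell on induction in vector cells, where CCN1 and CCN2 rose. The log2 fold change was -1.57 for CCN3 (SE 0.21, edgeR adjusted p = 5.7e-05) and -1.64 for CCN5 (SE 0.36, edgeR adjusted p = 0.00299). CCN4 and CCN6 were too low to be tested. Of the other thrombospondins only THBS3 was tested, and it fell by 0.93 (SE 0.20, edgeR adjusted p = 0.00249). ANKRD23, the other muscle ankyrin repeat gene measured, did not pass the test in any comparison of induction or JUN, with group means of 0.40 to 0.52 CPM.

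Around AXL, the receptors TYRO3 and MERTK and the ligands GAS6 and PROS1 were listed. GAS6 rose on induction in vector cells by 1.16 (SE 0.13, edgeR adjusted p = 8.06e-06), and TYRO3 fell by 0.43 (SE 0.13, edgeR adjusted p = 0.0239). JUN without induction raised PROS1 by 0.85 (SE 0.24, edgeR adjusted p = 0.0136) and lowered both TYRO3 (-0.41, SE 0.13, edgeR adjusted p = 0.0245) and MERTK (-0.37, SE 0.12, edgeR adjusted p = 0.0242). Around F3, 6 of 7 listed genes of the tissue factor pathway were tested. F3 was the only one called on induction in vector cells, while JUN without induction also raised the anticoagulant receptor thrombomodulin (THBD) by 2.67 (SE 0.12, edgeR adjusted p = 1.3e-09) and the tissue factor inhibitor TFPI by 0.99 (SE 0.23, edgeR adjusted p = 0.00334).

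Around NT5E, 9 of 11 listed genes of extracellular adenosine handling were tested. JUN without induction raised 3 and lowered 4 of them, against 20.1% and 18.9% of all genes. Besides NT5E, the adenosine receptor ADORA2A rose from 0.13 to 1.23 CPM (log2 fold change 3.18, SE 0.58, edgeR adjusted p = 0.000688), and the ectonucleotidase ENTPD3 rose from 0.25 to 1.80 CPM (log2 fold change 2.78, SE 0.54, edgeR adjusted p = 0.00105), both at low levels. ENTPD2, an ectonucleotidase upstream of NT5E, went from 33.6 to 6.75 CPM (log2 fold change -2.32, SE 0.14, edgeR adjusted p = 1.69e-08).

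Among the 9 genes themselves, the profiles over the 12 libraries were most alike for THBS1 and ANKRD1 (Pearson's r of log2 CPM 0.977), CCN1 and CRIM1 (0.974) and CCN1 and CCN2 (0.966). ANKRD2 and NT5E ran most nearly opposite (-0.937). The libraries form 4 groups, so these correlations mostly restate the group means. Among 11783 other genes, or 11782 for CRIM1, the profile most like CCN1 was that of the kinase PLK2 (r = 0.996), followed by AMOTL2 (0.993). CAV1, which encodes caveolin, was in the leading pair for both THBS1 (0.989) and ANKRD1 (0.989), beside the clock repressor CRY1 (0.992) and the helicase DDX20 (0.984).

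For ANKRD2 the closest were UNG (0.987) and TGM1 (0.986), for CCN2 CTNNAL1 (0.992) and WDR43 (0.990), and for CRIM1 AJUBA (0.980), a LIM protein that restrains LATS kinases, and MICB (0.980). For AXL they were RUSC2 (0.984) and RIC8A (0.983), for F3 RBMS1 (0.995) and CDV3 (0.992), and for NT5E FAM114A1 (0.997) and CNTNAP1 (0.993). Only 1 of these 18 choices was also made by Spearman's rho, so the names depend on the measure of likeness.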

How the data were processed

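Raw read counts per Entrez gene, without normalization, were deposited by the authors for 12 libraries. Per the labels and the methods, poly(A) reads were trimmed with cutadapt 4.2, aligned to hg19 with Bowtie2 2.3.5.1 (the methods name another version) and counted with countOverlaps. The annotation, the use of strand and the promoter of the JUN vector are not given in the sources used here, so overlapping genes can share reads. All 12 columns were used. Groups were taken from the sample titles.

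Counts were tested with edgeR 4.0.16 under R 4.3.3 (filterByExpr, minimum count 10 and minimum total 15, TMM, robust quasi-likelihood fit with a mean per group over all 12 libraries). Benjamini-Hochberg adjustment ran over 14775 genes, and genes were called at an adjusted p under 0.05. The steps were tested on simulated data. SE is that of the log2 fold change, derived as its absolute value divided by the square root of the F statistic of the test. It is approximate where counts are few, as for ANKRD1. Counting intervals (exact, 95%) and the floor of 3 counts cover counting error only. Depth was 18594867 to 28993487 counts per library. Correlations used log2 CPM with a prior count of 2 among genes of at least 5 CPM in a group. Gene positions come from GENCODE v44lift37 (GRCh37, which is hg19).

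The members and the gene lists were chosen with earlier results of these data known. Named genes were the 9 members, JUN, YAP1, at most 4 called genes per list with the largest change in the comparison described, and the 2 genes most like each member. Genes named beyond this rule (CCN3, CCN5, THBS3, ANKRD23, markers and genes in the closing section) were named for their family or after their values were seen. The alternatives were DESeq2 1.42.0, RLE or upper-quartile scaling, no filter, a minimum of 5 CPM, only the libraries compared, the replicate number as a block and each library left out. A further gene of the lists is not reported here.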

Additional observations from a re-analysis of the deposited data

Results flagged for a closer look

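CRIM1 was higher with JUN in every uninduced library and lower with JUN in every induced library. The groups were apart in these ways for 28.9% and 21.2% of all genes tested. The uninduced value was small and not called (log2 0.22, SE 0.14, edgeR adjusted p = 0.207). The log2 JUN effects with and without induction differed by -0.71 (SE 0.19). This difference was not tested because the genes were ordered by part of it.

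Among the other genes of the lists, 7 had an induction that differed between JUN and vector cells by the interaction term of the edgeR fit. The log2 difference was -2.03 for JUN (SE 0.22, edgeR adjusted p = 0.000133), whose own log2 induction stood at 1.99 with the empty vector and -0.035 with JUN. JUN counts in JUN cells include the vector's own transcript, which cannot be told apart from the cell's gene, and the difference is not read as one of the cell's gene. It was -1.97 for IGFBP3 (SE 0.38, edgeR adjusted p = 0.0167), which was still induced by 4.02 in JUN cells. NUAK2 differed by -1.84 (SE 0.18, edgeR adjusted p = 7.1e-05), from 2.42 in vector cells to 0.58 in JUN cells. CCDC80 differed by -1.48 (SE 0.15, edgeR adjusted p = 7.12e-05) and FOXF2 by -0.72 (SE 0.13, edgeR adjusted p = 0.00949). The epithelial cadherin CDH1 differed by -1.03 (SE 0.17, edgeR adjusted p = 0.00541), and it went from 120 to 58.7 CPM on induction with JUN. Thrombomodulin (THBD) differed by -1.84 (SE 0.16, edgeR adjusted p = 3.74e-05). Its log2 change on induction came to -0.15 with the empty vector and -1.99 with JUN, where it fell from 271 to 68.2 CPM. Over all genes tested, 0.826% were called with a lower and 0.291% with a higher log2 value of induction in JUN cells than in vector cells. A lower value can be a weaker rise or, as for CDH1 and THBD, a stronger fall.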

How the results depend on the processing

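Every alternative kept the direction and the call of the 9 genes for induction in vector cells, and the direction for the JUN effect with and without induction. In JUN cells, the induction call of ANKRD1 was lost under DESeq2 and with 5 of the JUN libraries left out, as given with that gene. With only the libraries compared, 4 rather than 2 of the 9 genes were called higher with JUN without induction, since AXL and CRIM1 were gained. ANKRD1 was not tested there. Leaving out each library in turn gave 3823 to 6765 genes called for JUN without induction (lowest without JUN EtOH replicate 1) and 2082 to 3861 for induction in JUN cells (lowest without JUN EtOH replicate 2), against 5766 and 3168, and 0 to 1 of the 9 genes called lower in the latter. The cause was not tested. The difference between the inductions changed sign for NT5E (-0.10 to 0.065) and for AXL (-0.051 to 0.24) over these omissions. The reversed values were 0.060, 0.0039, 0.050 and 0.065 for NT5E without vector EtOH replicate 2, vector Dox replicate 2, JUN EtOH replicate 1 or JUN Dox replicate 3. They were -0.046, -0.023 and -0.051 for AXL without vector Dox replicate 1, JUN EtOH replicate 2 or JUN Dox replicate 3. Without TMM, CCN2 kept 40.2% and CCN1 58.6% of the induced level. Depth limits ANKRD1 most, with at most 3 counts per library in JUN EtOH.

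The replicate numbers were not taken as pairs, since not every same-number pair of libraries correlated above 0.1 in its deviations. Of same-number pairs 7 of 18 did (median 0.088, highest 0.466) and of other pairs 5 of 36 (median -0.048). The best match of a library in another group had the same number in 22 of 36 cases. For 4 of 12 libraries this held in every other group. These values are a hint that the replicate numbers mark blocks. The sample numbers in the column labels also run replicate by replicate, with every group in turn. Whether the libraries were made in such blocks is not given in the sources used here. With the replicate number as a block, 4588 genes were called for induction in vector cells, 3256 for induction in JUN cells and 5871 for JUN without induction. The block called AXL higher without induction (0.36, edgeR adjusted p = 0.0429) and changed no other call of the 9 genes.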
